A study of Mus musculus with 6 samples.

Results

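The miR-200 family consists of 5 miRNA genes at 2 loci of the mouse genome. It was followed here through 7 mature miRNAs chosen by name: mmu-miR-200a-3p, mmu-miR-200b-3p, mmu-miR-200c-3p, mmu-miR-141-3p, mmu-miR-429-3p, mmu-miR-200a-5p and mmu-miR-200b-5p, written below without the species prefix. They are 7 of 1964 mature miRNA entries and of 16310 non-coding RNA entries measured in every library. All 7 passed the filter on low counts and entered the test. Measured were small RNAs of exosomes, the vesicles that cells shed into culture medium, from 2 cultured mouse skin cell types with 3 libraries each.

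Epidermal stem cells (ESC) were the fast-adhering epidermal cells from dorsal skin of C57BL/6 mice aged 3 weeks, with hair follicles at rest, grown on in serum-free keratinocyte medium. Dermal fibroblasts (Fb) came from dorsal skin of db/db mice aged 14 weeks, which carry a leptin receptor mutation, and grew in serum until a serum-free collection of 2 days. The strain field nevertheless reads C57BL/6 for all libraries, and passage was 0 to 1 in both groups. Cell type, genotype, age and medium differed together and cannot be told apart. Whether animals were pooled is not given in the sources used here, so p-values measure only the spread between these libraries. The comparison addresses how the small RNA cargo of the 2 kinds of exosome differs.

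The family is a guardian of the epithelial state. Its members silence Zeb1 and Zeb2, transcription factors that shut off E-cadherin and drive cells toward a mesenchymal form, and Zeb1 and Zeb2 in turn repress both miR-200 loci. Fibroblasts, which are mesenchymal cells, are known for low levels of the family, whereas skin epithelium expresses it. A miRNA hairpin yields a 5p and a 3p arm, and usually the arm loaded into Argonaute accumulates while the other is degraded. Target choice rests mainly on the seed, bases 2 to 8 of the mature strand.

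The mature sequences are shown because the family divides by seed, and the seed groups cut across the loci. The RefSeq table (GRCm38.p6) held all 7. Capitals mark the seed, and positions are counted from 1 at the 5′ end.
miR-200b-3p: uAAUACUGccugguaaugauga
miR-200c-3p: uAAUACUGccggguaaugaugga
miR-429-3p: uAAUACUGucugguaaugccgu
miR-200a-3p: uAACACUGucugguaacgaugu
miR-141-3p: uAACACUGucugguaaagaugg
miR-200a-5p: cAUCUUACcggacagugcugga
miR-200b-5p: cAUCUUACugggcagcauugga

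Among the 3p arms, miR-200b, miR-200c and miR-429 share the seed AAUACUG, and miR-200a and miR-141 share AACACUG. The seeds differ at a single base, written U4C with miR-200b-3p first. Of 1679 mature miRNAs in the table, the first seed occurred in 3 and the second in 2, all of them family members. miR-200a-3p and miR-141-3p differed by C17A and U22G, and miR-200b-3p and miR-200c-3p by U11G and A22G. Reads of such near-identical strands are uncertain where the counting could divide them, and the rule for dividing reads is not given in the sources used here. Both 5p members begin with C and share the seed AUCUUAC, whereas the 5 3p members begin with U.

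All 5 genes lie on the minus strand. Mir200b (chr4:156055681-156055750), Mir200a (chr4:156054896-156054985) and Mir429 (chr4:156053905-156053987) span 1846 bases within introns of the protein-coding gene Ttll10 (GRCm38, GENCODE M21). Mir429 also lies in an exon of the non-coding gene Gm13648. Mir200c (chr6:124718322-124718390) and Mir141 (chr6:124717914-124717985) span 477 bases within an intron of the non-coding gene Gm15884, and Mir141 partly overlaps the exon of Gm29008. Neither Gm13648 nor Gm29008 is analysed here. Gm15884 had 4.32 to 7.14 reads in ESC and 0.0426 to 3.68 reads in Fb libraries. Since it overlaps Phb2 on the other strand, these reads cannot be assigned with certainty. In Fb replicate 2 its 0.0426 reads equalled the value of the Mir200c hairpin entry. Whether reads of miR-200c-3p were divided with Gm15884 was not tested. Each hairpin entry of the 5 genes held at most 2.15 reads in a library, so the family was measured as mature strands.

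Libraries held 9894485 to 11149046 assigned reads in ESC and 6914504 to 8691350 in Fb. Mature miRNAs took 1392859 to 1522604 of these in ESC but only 49019 to 177990 in Fb, with the least in Fb replicate 1. A single read therefore equals at most 0.718 CPM (reads scaled to a fixed total of mature miRNA reads, the usual CPM unit) in ESC, against 20.4, 5.62 and 8.42 CPM in Fb replicates 1, 2 and 3. A count of 0 allows up to 3 reads, which is 61.2 CPM in Fb replicate 1. Intervals below are exact Clopper-Pearson intervals at 95% and cover counting error only, as no molecular identifiers are described.

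The miR-200 family took a far larger share of reads in ESC than in Fb exosomes, for 3p strands of both loci. The 5p members miR-200a-5p and miR-200b-5p were higher as well, but on 5 and 2 pooled Fb reads. They passed the filter on low counts only through the ESC libraries. The 7 members summed to 25186, 25913 and 23420 CPM in ESC replicates 1, 2 and 3, and to 2477, 1280 and 1002 CPM in the Fb libraries. As a share of mature miRNA reads this was 2.48% ± 0.128 (SD, n = 3) in ESC and 0.159% ± 0.0783 (SD, n = 3) in Fb, a ratio of 15.7. The groups did not overlap (two-sided exact permutation p = 0.1, which is the lowest value possible with 3 libraries a group, adjusted over 6 shares to an exact p = 0.2). Fitted as a single summed entry, the family had a log2 fold change (ESC over Fb, as throughout) of 4.52 (SE 0.38, adjusted p = 1.31e-04 by edgeR). The 3p members with the miR-200b seed, summed, had a log2 fold change of 4.91 (SE 0.30, adjusted p = 3.87e-05 by edgeR), and miR-200a-3p with miR-141-3p one of 3.86 (SE 0.51, adjusted p = 0.00102 by edgeR). These sums do not depend on how reads were divided within a seed group. These values are shares of reads, and the amount of the family per vesicle was not measured. Fewer vesicles holding the family, fewer copies in each vesicle and more of other RNAs cannot be told apart in these bulk libraries.

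Scaled to all assigned reads, the distance was larger. The family held 0.355%, 0.344% and 0.344% of assigned reads in ESC replicates 1, 2 and 3, against 0.00152%, 0.00262% and 0.00172% in the Fb libraries. The means were 0.347% ± 0.00624 (SD, n = 3) and 0.00195% ± 0.000587 (SD, n = 3), a ratio of 178 (exact permutation p = 0.1, adjusted exact p = 0.2). The smaller miRNA share of the Fb libraries enters this ratio. It also turns the order within Fb: replicate 1 had the highest family share of miRNA reads, at 0.248% (interval 0.205 to 0.295), and the lowest share of all reads. By member, the ratio of mean CPM of all assigned reads ran from 51.8 for miR-200a-5p to 395 for miR-200c-3p. With tRNA genes left out of the total the family stood 1.67 percentage points higher in ESC.

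All 7 members were called higher in ESC exosomes by edgeR's quasi-likelihood test at an adjusted p of 0.05, where 71 of 325 miRNAs tested, 21.8%, were called in that direction. Of these, miR-200b-3p, miR-200a-5p and miR-200b-5p passed the filter on low counts only through the ESC libraries, where they are high, so their calls are given as a description. The median of the 7 log2 fold changes was 4.20 (2.63 to 5.91), beside a median of -0.11 over all miRNAs tested. Each ESC library lay above each Fb library for all 7, beside 24.9% of miRNAs tested, and also as shares of all assigned reads, where 74.8% of miRNAs tested were separated in this way. The calls over all miRNAs were 71 higher in ESC and 90 in Fb, and this split moved to 52 and 103 with miRNA totals alone, to 45 and 114 with the 3 most abundant miRNAs left out of the library size, to 53 and 16 in a fit with all other RNAs, and to 236 and 20 with all assigned reads as library size. The median of all miRNAs was then -0.52, -0.64, 1.15 and 3.15. Folds below are as fitted and are to be read against the median of -0.11, and the 7 members kept their direction under each of these scalings.

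**Figure D1:**
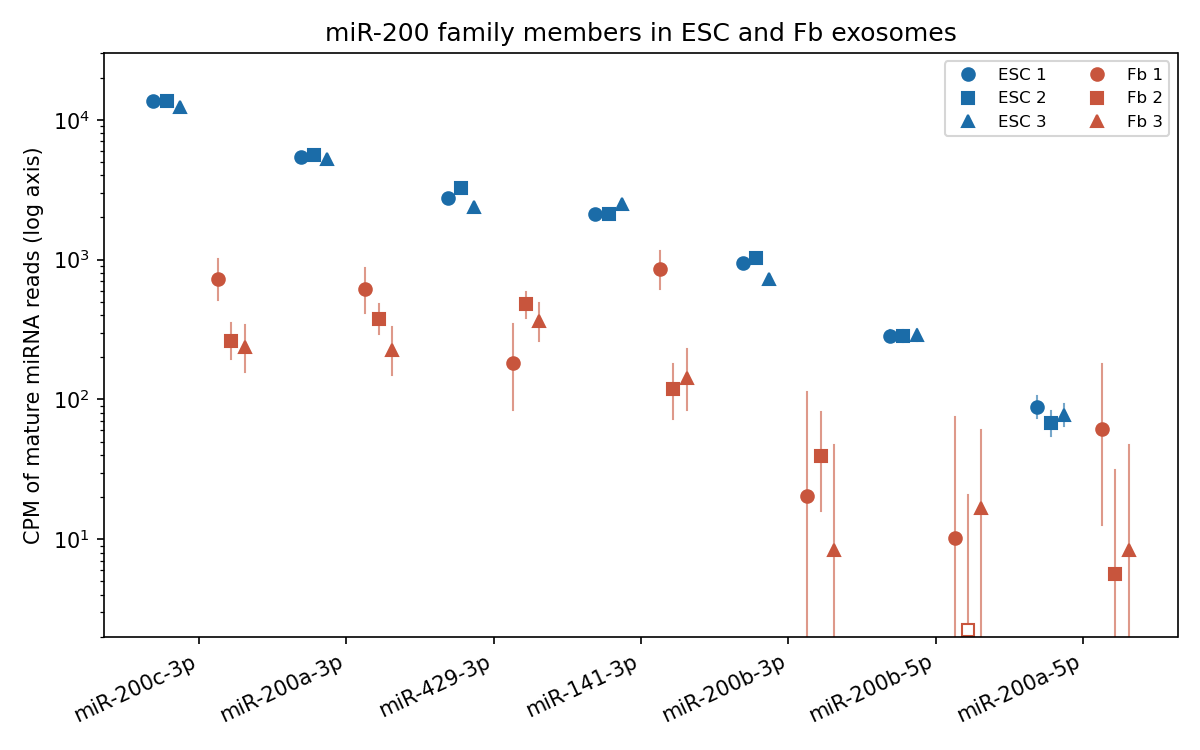
CPM of mature miRNA reads (log axis) of the 7 family members, one point per library, with exact 95% counting intervals. Blue points are ESC and red points Fb libraries, marker shapes are replicates, and the open square stands for the 0 reads of miR-200b-5p in Fb replicate 2. Every ESC point lies above every Fb point of the same miRNA, with the least room for miR-200a-5p (67.6 CPM in ESC replicate 2 against 61.2 CPM in Fb replicate 1).

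miR-200c-3p, a repressor of Zeb1 and, in human and mouse mammary cells, of Bmi1, was the most abundant member of ESC exosomes. It stood at 13601, 13543 and 12261 CPM in ESC replicates 1, 2 and 3 and at 732, 264 and 236 CPM in the Fb libraries, or 36, 47 and 28 reads. It ranked 16th among ESC and 125th among Fb miRNAs by mean CPM. The groups were far apart, with Fb replicate 1 above the other Fb libraries. The log2 fold change was 5.50 (SE 0.47, adjusted p = 1.24e-04 by edgeR), and 6.09 without Fb replicate 1.

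miR-141-3p, its partner on chromosome 6, carries the other seed, the one through which miR-200a and miR-141 repress the stress kinase p38α in human and mouse cells. It was at 2125, 2104 and 2481 CPM in ESC and at 857, 118 and 143 CPM in Fb exosomes. Fb replicate 1 stood far above the other Fb libraries for this strand, yet below every ESC library. The log2 fold change was 3.19 (SE 0.71, adjusted p = 0.00888 by edgeR), with the largest SE of the 5 3p members, and it was 4.49 without Fb replicate 1.

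On chromosome 4, miR-200a-3p was at 5399, 5632 and 5209 CPM in ESC and at 612, 376 and 227 CPM in Fb exosomes. The ESC libraries lay close together, and the groups were well separated. The log2 fold change was 4.20 (SE 0.40, adjusted p = 1.90e-04 by edgeR).

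miR-429-3p, which has the miR-200b seed but a different 3′ end, was at 2748, 3250 and 2380 CPM in ESC and at 184, 477 and 362 CPM in Fb exosomes. Here Fb replicate 1 was the lowest Fb library, the reverse of its place for miR-200c-3p, miR-200a-3p and miR-141-3p. The log2 fold change was 3.34 (SE 0.48, adjusted p = 0.00133 by edgeR), and 3.94 without Fb replicate 2. Fitted with all other RNAs it was 3.69 and missed the threshold (adjusted p = 0.140 by edgeR), while the other 6 members passed there, beside 17.3% of 307 miRNAs.

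miR-200b-3p, a direct repressor of Zeb1 and Zeb2, was the least abundant 3p member in both groups. It was at 940, 1031 and 723 CPM in ESC exosomes, and its 1, 7 and 1 reads in the Fb libraries came to 20.4, 39.3 and 8.42 CPM. Pooled over libraries, the ratio of ESC to Fb rates was 34.4 (exact counting interval 18.1 to 75.3). The log2 fold change was 5.51 (SE 0.54, adjusted p = 2.11e-04 by edgeR), and 6.84 without Fb replicate 2, which held 7 of the 9 Fb reads.

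The 5p strand of miR-200b had the smallest spread of the members across ESC libraries, at 284, 285 and 289 CPM. Its counting intervals were far wider (256 to 313, 259 to 314 and 263 to 317 CPM), so this closeness is finer than the counts resolve. In Fb exosomes the strand had an estimated 0.5, 0 and 2 reads. The half-read of Fb replicate 1 was matched by 0.5 in the hairpin entry of the same gene. The fitted log2 fold change of 5.91 (SE 0.75, adjusted p = 7.18e-04 by edgeR) rests on these few Fb reads. It was 5.24 without Fb replicate 2 and 11.07 without Fb replicate 3, the library with both whole reads. After rounding, the fit without Fb replicate 3 held no Fb reads of this strand, so 11.07 is not a measured fold.

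miR-200a-5p was the scarcest member in ESC exosomes, at 89.0, 67.6 and 77.5 CPM. In Fb exosomes 3, 1 and 1 reads gave 61.2, 5.62 and 8.42 CPM. Although the libraries did not overlap, the counting interval of Fb replicate 1 (12.6 to 179 CPM) covered all ESC values. The pooled ratio was 5.38 (exact counting interval 2.28 to 16.7). The log2 fold change of 2.63 (SE 0.70, adjusted p = 0.0187 by edgeR) missed the threshold without ESC replicate 3 (adjusted p = 0.0539 by edgeR), without Fb replicate 3 (adjusted p = 0.0590 by edgeR) and with miRNA totals alone (adjusted p = 0.0506 by edgeR), and was 3.88 without Fb replicate 1.

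The order of levels was firm in ESC and mostly unresolved in Fb exosomes. In ESC it ran from miR-200c-3p (13135 ± 758 CPM, SD, n = 3) through miR-200a-3p (5413 ± 212), miR-429-3p (2793 ± 437), miR-141-3p (2236 ± 212), miR-200b-3p (898 ± 159) and miR-200b-5p (286 ± 2.75) to miR-200a-5p (78.0 ± 10.7). Of the neighbours in this order only miR-429-3p and miR-141-3p overlapped, with miR-429-3p higher in 2 of 3 libraries. In Fb exosomes miR-200c-3p (411 ± 279), miR-200a-3p (405 ± 194), miR-141-3p (373 ± 419) and miR-429-3p (341 ± 148) overlapped throughout. miR-200a-5p (25.1 ± 31.3), miR-200b-3p (22.7 ± 15.6) and miR-200b-5p (9.01 ± 8.48) overlapped as well, below these 4. These strands are 22 or 23 bases long, and differences in ligation between strands were not tested.

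The balance of the 2 clusters varied between Fb libraries. In ESC exosomes the chromosome 4 cluster (miR-200b, miR-200a and miR-429) supplied 36.6%, 38.8% and 36.1% of the family's 3p reads, and the miR-200c and miR-141 cluster the rest. In Fb replicate 1 the share was 33.9% (40 of 118 reads, interval 25.4 to 43.2). In Fb replicate 2 it was 70.1% (159 of 227, interval 63.6 to 75.9) and in Fb replicate 3 61.2% (71 of 116, interval 51.7 to 70.1). The groups therefore overlapped, at 37.2% ± 1.44 (SD, n = 3) and 55.1% ± 18.8 (SD, n = 3), with an exact permutation p = 0.4 (adjusted exact p = 0.48). The difference of -17.9 percentage points was -28.5 without Fb replicate 1 and -10.4 without Fb replicate 2. It was -10.6 without miR-429-3p.

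Single members differed in these shares as follows. miR-429-3p made up 11.1%, 12.7% and 10.3% of family 3p reads in ESC, but 37.5% and 37.1% in Fb replicates 2 and 3 and 7.63% in Fb replicate 1. miR-200c-3p made up 54.8%, 53.0% and 53.2% in ESC and 30.4%, 20.7% and 24.1% in Fb exosomes, so its share was lower in all Fb libraries. miR-141-3p reached 35.6% in Fb replicate 1 (interval 27.0 to 44.9) against 8.23% to 10.8% in ESC.

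**Figure D2:**
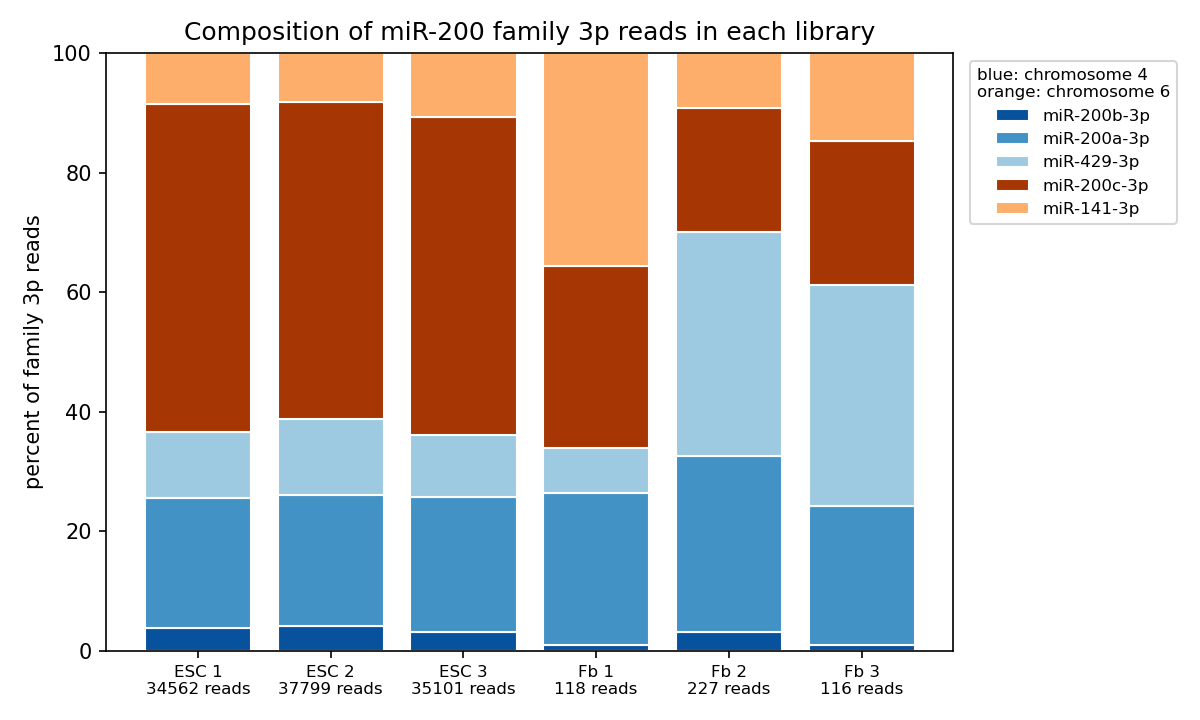
Percent of the family's 3p reads taken by each member in each library, with the number of reads below each bar. Blue shades are members from chromosome 4 and orange shades those from chromosome 6; the ESC bars are alike, with 53.0% to 54.8% miR-200c-3p, while the Fb bars, from 116 to 227 reads, differ between replicate 1 and the others.

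By seed, miR-200b, miR-200c and miR-429 together held 69.7%, 69.7% and 66.6% of family 3p reads in ESC and 38.9%, 61.2% and 62.1% in Fb exosomes. The groups did not overlap (68.7% ± 1.77 and 54.1% ± 13.1, SD, n = 3, exact permutation p = 0.1, adjusted exact p = 0.2). The difference of 14.6 percentage points fell to 7.04 without Fb replicate 1. It was 27.5 without miR-429-3p and 8.74 without miR-141-3p. The counting intervals of Fb replicates 2 (54.6 to 67.6) and 3 (52.6 to 70.9) reached ESC values.

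Ratios between members within a library, compared after the values were seen, do not depend on the library total. Among pairs from the same cluster, miR-200c-3p had 6.40, 6.44 and 4.94 reads per read of miR-141-3p in ESC exosomes, but 0.855, 2.23 and 1.65 in Fb exosomes. miR-200b-3p had 0.342, 0.317 and 0.304 reads per read of miR-429-3p in ESC and 0.111, 0.0824 and 0.0233 in Fb exosomes. Neither of these pairs overlapped between the groups. miR-200a-3p per read of miR-200b-3p was separated in the other direction, at 5.75, 5.46 and 7.21 in ESC and 30, 9.57 and 27 in Fb (log2 difference -1.70). miR-200a-3p per miR-429-3p, the remaining pair of a single cluster, overlapped (exact permutation p = 0.4).

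The differences, ESC minus Fb, were 2.01 on the log2 scale for miR-200c-3p to miR-141-3p (1.62 to 2.31 when a library was left out) and 2.42 for miR-200b-3p to miR-429-3p (1.74 to 2.87). The ratio of miR-200b-3p to miR-429-3p, with 9 and 137 pooled Fb reads, was 0.0657 in Fb (exact counting interval 0.0294 to 0.128) and 0.321 in ESC (0.310 to 0.333). Across the clusters, miR-200c-3p to miR-200b-3p, which share a seed, overlapped between the groups (exact permutation p = 0.8). miR-200c-3p to miR-429-3p, which also share a seed, was higher in every ESC library (log2 difference 2.07), and miR-200a-3p to miR-200c-3p was lower in every ESC library (-1.35). Of 10 pairs, 5 did not overlap, each with exact permutation p = 0.1, or 0.2 when adjusted over the 10.

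**Figure D3:**
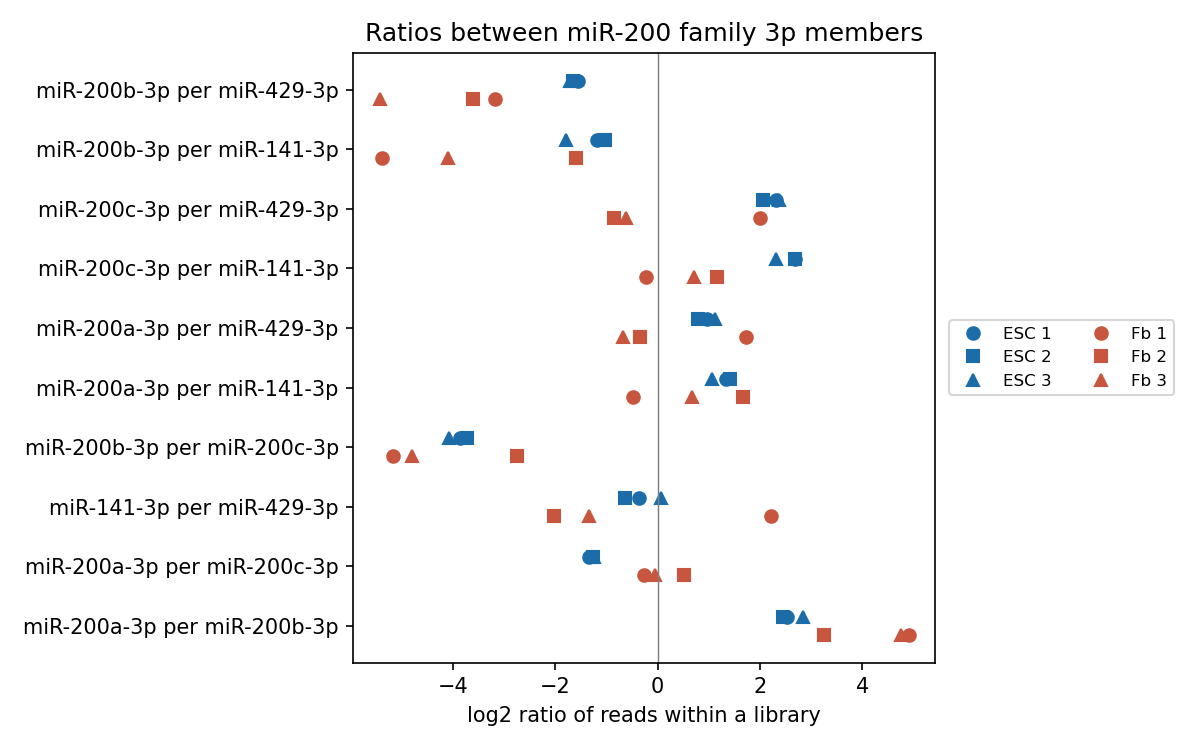
Log2 ratio of reads of 2 family 3p members within each library, for all 10 pairs, with ESC libraries in blue and Fb libraries in red. The ESC points of a pair lie close together and the Fb points are spread; miR-200c-3p per miR-141-3p runs from 4.94 to 6.44 in ESC and from 0.855 to 2.23 in Fb libraries before taking log2.

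The arm comparison set miR-200b apart from the other hairpins. The hairpins of miR-200a and miR-200b are shown because their arms, in capitals from 5p to 3p, gave such different yields.
Mir200a: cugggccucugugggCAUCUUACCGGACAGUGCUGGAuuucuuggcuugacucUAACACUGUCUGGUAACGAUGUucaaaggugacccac
Mir200b: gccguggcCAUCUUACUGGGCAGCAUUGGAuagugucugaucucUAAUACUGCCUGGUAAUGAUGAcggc

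In ESC replicates 1, 2 and 3 the 5p strand made up 23.2%, 21.7% and 28.6% of miR-200b reads, or 395, 422 and 440 reads. For miR-200a it was 1.62%, 1.19% and 1.47%, or 124, 100 and 118 reads. The lowest miR-200b interval (19.9 to 23.6) lay well above the highest miR-200a interval (1.35 to 1.93). In mean CPM, the 5p strand was higher for miR-200b (286) than for miR-200a (78.0), while the 3p strand was lower (898 against 5413).

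The other hairpins were 3p-dominated in ESC exosomes. miR-141-5p had 110 of 9958 reads of its hairpin (1.10%, interval 0.909 to 1.33) and a single Fb read. Its fitted log2 fold change was 3.36 (SE 0.90, adjusted p = 0.0188 by edgeR), but it passed the filter only through the ESC libraries. miR-200c-5p had 6 of 57647 reads (0.0104%, interval 0.00382 to 0.0227). miR-429-5p had 0 of 12259 reads, which allows a share of up to 0.0245%.

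A change of arm use between the groups was not detectable at this depth. In Fb exosomes the 5p strand of miR-200a made up 9.09%, 1.47% and 3.57% of 33, 68 and 28 reads (4.71% ± 3.94, SD, n = 3, against 1.42% ± 0.221 in ESC, exact permutation p = 0.2, adjusted exact p = 0.3). The difference of -3.29 percentage points was -1.10 without Fb replicate 1. For miR-200b there were 2 whole 5p reads of 11 in Fb exosomes (18.2%, interval 2.28 to 51.8), and the group values overlapped (exact permutation p = 0.7, adjusted exact p = 0.7).

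**Figure D4:**
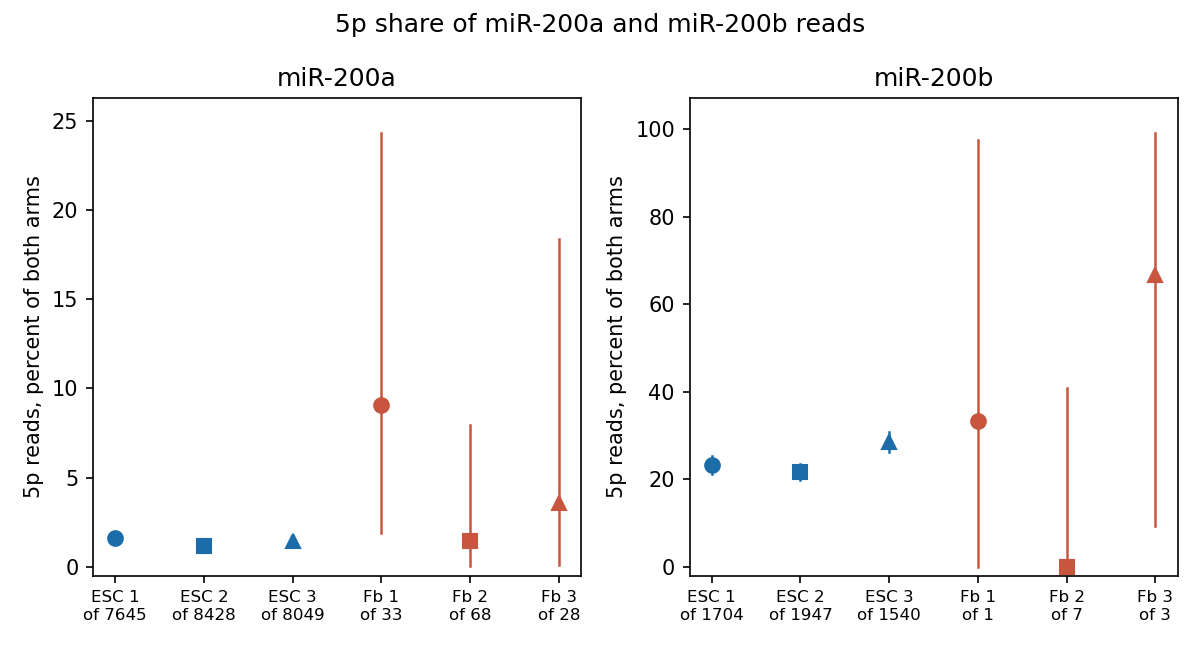
Reads of the 5p strand as a percent of both strands of miR-200a (left) and miR-200b (right) in each library, with exact 95% counting intervals and the number of reads below each label; the axes differ in range. The ESC points sit at 1.19% to 1.62% and at 21.7% to 28.6%, and the Fb intervals are wide, reaching from 0 to 97.5% in Fb replicate 1 for miR-200b.

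Markers of keratinocytes, like the family, were higher in ESC exosomes, and they were present in Fb exosomes. miR-203-3p, which limits the proliferative potential of epidermal progenitors, was at 15340 ± 1183 CPM (SD, n = 3) in ESC and 2256 ± 1335 in Fb. miR-205-5p, a miRNA of stratified epithelium that also represses Zeb1 and Zeb2, was at 28761 ± 5640 in ESC and 6742 ± 2651 in Fb. Their sum ranged from 36818 to 49040 CPM in ESC and from 5051 to 12899 in Fb exosomes, neither being at 0 in any library. Both passed with log2 fold changes of 3.08 and 2.44. Between the Fb libraries their order differed from that of the family. In Fb replicates 1, 2 and 3 miR-203-3p was at 768, 3348 and 2651 CPM and miR-205-5p at 4283, 9551 and 6392. Fb replicate 1, the highest Fb library for the family by CPM of mature miRNA reads, was thus the lowest for both.

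Per read of miR-205-5p, the family had 0.795, 0.801 and 1.05 reads in ESC and 0.578, 0.134 and 0.157 in Fb exosomes, so the family was also lower relative to this marker in each Fb library. For miR-141-3p alone this ratio overlapped between the groups, at 0.0671, 0.0651 and 0.111 in ESC and 0.200, 0.0124 and 0.0224 in Fb. Against other epithelial miRNAs the family was not separated. Per read of miR-203-3p it had 1.71, 1.55 and 1.61 reads in ESC and 3.22, 0.382 and 0.378 in Fb, with Fb replicate 1 above all ESC libraries. Per read of miR-182-5p it had 0.230, 0.256 and 0.218 reads in ESC and 0.290, 0.195 and 0.184 in Fb. Of the 5 3p members, miR-200b-3p alone was lower in every Fb library relative to all 3 of these miRNAs. Its Fb ratios rest on 1, 7 and 1 reads, and it passed the filter on low counts only through the ESC libraries. This separation is therefore a description. The part of keratinocyte RNA in the Fb values of the family was not tested.

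Stromal markers went the opposite way: of 8 (miR-143, miR-145a, miR-199 and miR-214 strands), all 8 tested were called higher in Fb. Over all miRNAs tested 27.7% were called in that direction. The 8 summed to 175 to 209 CPM in ESC and 195469 to 304498 in Fb exosomes. miR-145a-5p, miR-145a-3p, miR-199a-5p, miR-214-3p and miR-214-5p, at 2.63 CPM or less in ESC libraries, passed the filter only through the Fb libraries. So did miR-199b-3p, at 46.7, 0.169 and 0 CPM in ESC replicates 1, 2 and 3. The calls of all these strands are given as a description. For Fb replicates 1, 2 and 3, miR-199a-3p stood at 97733, 3.80 and 17256 CPM and miR-199b-3p at 13999, 197149 and 155856. In ESC replicates 1, 2 and 3 miR-199a-3p was at 0, 72.5 and 49.9 CPM. Its groups thus overlapped despite the call (adjusted p = 0.0332 by edgeR). With the rule for dividing reads not given, miR-199a-3p and miR-199b-3p may not be 2 separate markers. miR-145a-3p and miR-214-5p were at 0 in all ESC libraries. Of 5 blood-cell miRNAs the summed range was 0.957 to 4.60 CPM in ESC and 36.5 to 143 in Fb, with miR-142a-3p at 0 in all libraries, miR-223-3p at 0 in ESC and miR-150-5p at 0 in Fb. The 2 endothelial miRNAs summed to 77.1 to 120 and 109 to 347 CPM, the 3 muscle miRNAs to 123 to 161 and 466 to 1714, and the 2 liver and serum miRNAs to 7.94 to 306 and 391 to 11311, while miR-211-5p of pigment cells was at 0 throughout. The liver and serum sum of Fb exosomes was nearly all miR-486a-5p (5319 ± 5539 CPM, SD, n = 3), which did not pass. The entry miR-486b-5p, not in this list or sum, did not pass either (log2 fold change -4.85, SE 2.31, adjusted p = 0.118 by edgeR). The other listed miRNA, miR-122-5p, was not higher in Fb, at 6.85 ± 0.938 CPM in ESC and 3.82 ± 3.31 in Fb. The part of these cells in the family's values was not tested. Protein-coding markers were not measured in these non-coding RNA tables.

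The miRNAs that act beside the family in the epithelial state were compared as lists. Of 5 other epithelial miRNAs (miR-203-3p, miR-205-5p and the miR-183, miR-96 and miR-182 cluster) all 5 were called higher in ESC, beside 21.8% of all miRNAs tested, with a median log2 fold change of 4.37. Of these, miR-96-5p was at 73.2 to 83.2 CPM in ESC and at 0 in all Fb libraries. It passed the filter on low counts only through the ESC libraries, so its call is given as a description. Of 8 miRNAs reported to restrain the epithelial-mesenchymal transition, which include miR-203-3p and miR-205-5p, 5 were higher in ESC, 1 was higher in Fb and 2 did not pass, beside 21.8% and 27.7% called in these directions over all miRNAs tested. The p53-induced miR-34 strands, which repress Snai1, were higher in ESC: miR-34b-5p with a log2 fold change of 2.15 (SE 0.61, adjusted p = 0.0226 by edgeR), miR-34c-5p with 1.92 and miR-34a-5p with 1.39. miR-34b-5p, at 0, 45.5 and 58.9 CPM in Fb replicates 1, 2 and 3, also passed the filter only through the ESC libraries. miR-101a-3p was higher in Fb exosomes (log2 fold change -1.10, SE 0.28, adjusted p = 0.0173 by edgeR), and miR-192-5p (0.10) and miR-215-5p (0.31) did not pass.

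Of 6 miRNAs reported to promote that transition, 5 were tested. With 1 called in each direction, the list was near the shares over all miRNAs tested (21.8% and 27.7%) and gives no result about its members. miR-10b-5p was higher in ESC (log2 fold change 4.28, SE 0.42, adjusted p = 2.16e-04 by edgeR) and miR-155-5p higher in Fb exosomes (-1.33, SE 0.38, adjusted p = 0.0233 by edgeR). miR-21a-5p (1.02), miR-221-3p (-0.84) and miR-222-3p (-0.68) did not pass, and miR-9-5p had 0 reads in all libraries. Their median was -0.68.

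The miRNAs with a pattern most like the family's were sought among 173 others with a mean of at least 100 CPM. Likeness was the root mean square difference over 6 libraries between log2(CPM + 1) profiles, each centred on its own mean. The nearest were miR-183-5p (0.19) and miR-182-5p (0.22), which come from a single cluster, then miR-10b-5p (0.36), miR-146a-5p (0.46) and miR-672-5p (0.56). Among the members, miR-200a-3p was nearest to the family sum (0.16), whereas miR-200c-3p (0.58), miR-141-3p (0.72), miR-429-3p (0.91), miR-200b-3p (0.93) and miR-200b-5p (1.52) lay farther off, and miR-200a-5p was below the minimum of 100 CPM. miR-183-5p was at 20454 ± 916 CPM (SD, n = 3) in ESC and 1092 ± 348 in Fb exosomes, and miR-672-5p, the least abundant of the 5, at 565 ± 36.4 and 37.5 ± 38.8.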

How the data were processed

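Small RNAs of exosomes were sequenced from 3 ESC and 3 Fb libraries, grouped by title. The authors deposited estimated counts of reads per non-coding RNA, 1 file per library. FastQC and cutadapt were used and the build was GRCm38, per the submitters' processing notes; for the aligner, the counter and strand use, nothing is given in the sources used here. Libraries were made with the CleanTag kit, per the labels' protocols.

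After rounding, estimated counts went into the quasi-likelihood test of edgeR 4.0.16 under R 4.3.3 (TMM factors, group as the only term, filterByExpr with minimum count 10 and total 15, library size the mature miRNA reads, Benjamini-Hochberg over all 325 miRNAs). Mature entries begin mmu-miR- or, with an arm, mmu-let-7. For single values the permutation test of scipy 1.17.1 was used, exact and two-sided. Alternatives were DESeq2 1.42.0, limma 3.58.1 (trend), other scalings and filters, a replicate block, and fits with each library left out in turn. Seed sums and member ratios were added after the values were seen. Fits were tested on simulated data. Replicate libraries differed by more than sampling noise (chi-square per degree of freedom at least 16.0).

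Members, lists and markers were chosen with earlier results of these data known. The named miRNAs were the 7 members, the other 5p strands of the family and the 5 miRNAs nearest in pattern. In each list they were the 3 at most with the lowest p that reached 10 CPM in a group. Further list members and miR-486b-5p were named after their values were seen. Sequences and hairpin positions came from RefSeq (GRCm38.p6), and overlapping genes from GENCODE M21.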

Additional observations from a re-analysis of the deposited data

How the results depend on the processing

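All 7 members kept their direction under every scaling, filter, tool and left-out library run, and 6 to 7 of them were called. Over all miRNAs, the calls higher in ESC ran from 38 of 374 tested without Fb replicate 3 to 236 of 307 with all assigned reads as library size. Among the 7, miR-200b-3p, miR-200a-5p and miR-200b-5p passed the filter of the main fit only through the ESC libraries. The exceptions to the call were miR-200a-5p with miRNA totals alone (log2 fold change 2.23), without ESC replicate 3 or without Fb replicate 3 (2.31 to 3.88 over left-out libraries), and miR-429-3p fitted with all other RNAs (3.69). With all assigned reads as library size the calls over all miRNAs were 236 higher in ESC and 20 in Fb of 307 tested, against 71 and 90 of 325. In the fit with all RNAs 16 of 307 were higher in Fb, and with the 3 most abundant miRNAs left out of the library size 45 of 322 were higher in ESC. Leaving out a library gave 38 to 103 calls higher in ESC and 61 to 110 higher in Fb, with the fewest higher in ESC without Fb replicate 3 and 42 to 47 without any one ESC library. The number of miRNAs tested changed as well. It was 242 or 243 without an ESC library and 374 to 380 without an Fb library, so these counts are not directly comparable. The cause of the remaining differences was not tested.

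With the replicate number as a block 45 of 325 miRNAs were called higher in ESC and all 7 members passed. Same-numbered libraries did not deviate together (r = -0.25, -0.10 and -0.14 across miRNAs), and not every library correlated best with its own number, so the numbers name libraries only.

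The 5p share of miR-200b, ESC minus Fb, was -8.86 percentage points, but 2.25 with reads rounded first and -25.5 to 7.81 over left-out libraries, resting on 11 Fb reads. The log2 ratio of miR-200b-3p to miR-200c-3p turned from 0.35 to -0.11 without Fb replicate 1 (range -0.11 to 1.10 over left-out libraries). That of miR-141-3p to miR-429-3p turned from 0.06 to -0.12, -0.75 and -0.42 without ESC replicate 3, Fb replicate 2 and Fb replicate 3 (range -0.75 to 1.36). All other differences in shares and ratios kept their sign. Depth limits the Fb values of the 5p strands and of miR-200b-3p, at 7 reads or fewer in each Fb library.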
